A study of Mus musculus with 8 samples.

Results

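The cytosolic ribosomal protein genes are described here in mouse primary macrophages. Members were chosen by symbol: Rpl or Rps followed by a number and at most 1 letter of a, x, y or l, together with Rplp0, Rplp1, Rplp2 and Rpsa. The rule found 81 of the 24421 gene symbols in the count files: 46 large-subunit genes, 32 small-subunit genes and 3 genes of the stalk. A further 77 genes of the mitochondrial ribosome, with symbols that begin with Mrpl or Mrps and a number, were set beside them.

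All 8 libraries came from mice on a normal diet. WT, the wild type, has 3 libraries, the double knockout labelled LysM-DKO has 3, and the group labelled ABCG1KO has 2. LysM-Cre is a Cre recombinase driven from Lyz2, a gene of myeloid cells, and the design text calls the double knockout group Epsin-DKO. Epsins are adaptors of clathrin-mediated endocytosis, and ABCG1 is a transporter that exports cholesterol. The study asked how epsins in macrophages affect lipid handling and ABCG1-dependent export of cholesterol. The floxed alleles, the sex and age of the mice and the tissue are not given in the sources used here. Nothing in the labels says that libraries of a group came from separate animals, so p-values measure the spread between these samples, which may be technical in part.

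Levels are given in CPM, which is the count divided by the library size after scaling by the trimmed mean of M-values (TMM). Each library held 29567615 to 41888516 counts in genes. The targeted genes were checked first. Abcg1 stood between 345 and 405 CPM in WT and at 60.4 and 73.4 CPM in ABCG1KO. Epn1 stood at 230, 203 and 191 CPM in WT and at 169, 183 and 155 CPM in the libraries labelled LysM-DKO. Epn2 stood at 8.18, 8.86 and 4.97 CPM in WT and at 5.67, 13.2 and 6.30 CPM in LysM-DKO. The counts over whole Epn1 and Epn2 therefore do not check that label, since which exons were deleted is not given in the sources used here. Lyz2, which carries the Cre driver, stood at 13004 to 15710 CPM in WT and at 6177 to 8105 CPM in LysM-DKO. The LysM-DKO 1 library and both ABCG1KO libraries differed from the others in sex-linked genes, with Xist at or below 0.0485 CPM and Ddx3y at 81.6 to 94.8 CPM. The other 5 libraries had Xist at 79.0 to 265 CPM. The LysM-DKO libraries therefore did not all come from 1 animal.

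Ribosomal proteins build the large and the small subunit of the cytosolic ribosome around the ribosomal RNAs, and they are made in nearly equal amounts. Their mRNAs are known for a terminal oligopyrimidine (TOP) tract, a C followed by pyrimidines at the very 5′ end, through which mTORC1 and LARP1 control their translation. Genes of the mitochondrial ribosome encode a separate machine and are not known for TOP tracts. Ribosomal protein genes have also left many processed pseudogenes in the genome, whose sequence is close to that of the parent mRNA.

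Start sites of some members are shown because the family is known for this tract. The lines do not give how often it occurs at listed starts, which follows them. Each line gives 20 bases before and 20 from the annotated start on the gene's strand, from RefSeq (GRCm38.p6), with the pyrimidine run that begins at the start in capitals.
Rps6, chr4:86857348-86857387, minus strand: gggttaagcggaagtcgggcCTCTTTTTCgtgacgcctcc
Rplp2, chr7:141447631-141447670, plus strand: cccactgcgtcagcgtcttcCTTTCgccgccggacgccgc
Rpl38, chr11:114668560-114668599, plus strand: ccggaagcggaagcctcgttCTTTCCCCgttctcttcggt
Rpl28, chr7:4792945-4792984, plus strand: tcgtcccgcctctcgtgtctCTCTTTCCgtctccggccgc
Rps27, chr3:90213629-90213668, minus strand: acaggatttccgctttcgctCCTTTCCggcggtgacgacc
Rps3, chr7:99483690-99483729, minus strand: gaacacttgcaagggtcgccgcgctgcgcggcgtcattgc

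RefSeq windows were matched for 60 of the 81 members, in 72 windows. A C followed by 4 pyrimidines (C or T), read on the gene's strand at the first transcribed base, opened 13 of the 72 windows (18.1%). The same motif opened 0 of 74 windows of mitochondrial ribosomal protein genes and 823 of 32851 windows of all genes (2.51%). Allowing the motif to begin up to 5 bases to either side raised these shares to 41.7%, 23.0% and 18.3%. The Rps3 window is an example with no pyrimidine at its listed start.

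In WT, 72 of the 81 members stood above 100 CPM in every library. Among the 78 members with enough counts to be tested, the WT mean ranged from 0.536 to 817 CPM, with a median of 319 CPM. Levels of different genes were compared per kilobase of the principal GENCODE transcript. Rplp1, an acidic stalk protein, had the highest WT level at 1273 ± 184 CPM per kb (SD, n = 3). Rps15, Rpl10 and Rpl41 followed at 871 ± 135, 871 ± 117 and 839 ± 103 CPM per kb. These SDs hold differences between libraries common to the members, so they do not measure a difference between genes. The order of these genes was not tested.

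7 members stayed below 10 CPM in every library. Rpl10l, a testis-enriched paralog of Rpl10, had 0 counts in all 8 libraries, which allows up to 3 counts in each. Rpl39l, a paralog of Rpl39, had 37, 5 and 6 counts in WT and 0, 1 and 7 in LysM-DKO. Rpl3l, a paralog of Rpl3 known from muscle, had 0 to 15 counts in a library. These 3 genes were not tested. The remaining 4 are core ribosomal proteins: Rpl26, Rps27, Rpl30 and Rpl34. Rps27 had 23, 51 and 49 counts in WT, and Rpl26 had 22, 19 and 17. Of the 50-base windows of the Rps27 transcript, 98.6% also occur in a transcript of another gene, and for Rpl26 the share is 71.3%. For Rpl30 and Rpl34 it is 47.8% and 50.6%, near the family median of 49.3%. Rpl10 and Rpl9, at 92.1% and 93.3%, had WT means of 696 and 277 CPM, so members with a high share did not all have a low level. Reads that fit several loci were not assigned to a gene, and the part of shared sequence in these 4 low levels was not tested.

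In the libraries labelled LysM-DKO, the cytosolic ribosomal protein genes stood lower than in WT as a family, by a modest and similar amount. Their summed level was 30484, 24668 and 23921 CPM in the WT libraries and 19952, 17319 and 19932 CPM in LysM-DKO, so the groups did not overlap. As a share of all counts in genes, before TMM scaling, the members took 2.78%, 2.27% and 2.25% in WT and 1.97%, 1.82% and 2.07% in LysM-DKO. The group means were 2.43% ± 0.300 and 1.95% ± 0.126 (SD, n = 3). All 78 tested members had a log2 fold change below 0, where 47.5% of all 13821 genes tested did. The median over the members was -0.48, against 0.02 over all genes tested, and the middle member stood at 71.8% of its WT level.

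No single member passed the test. edgeR's quasi-likelihood test with Benjamini-Hochberg adjustment called 0 of 78 members at an adjusted p under 0.05, where it called 0.0362% of all genes tested. At an unadjusted p under 0.05 it gave 32 of 78 members, all lower, where 5.61% of all genes were lower at that level. DESeq2 called 4 members lower, against 1.37% of all genes tested. The CPM values of the groups did not overlap, with LysM-DKO lower, in 67 of 78 members and in 9.98% of all genes. These counts are not independent across members, which share the same libraries. In a bulk sample, fewer cells that express a gene and less RNA per cell cannot be told apart.

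**Figure D1:**
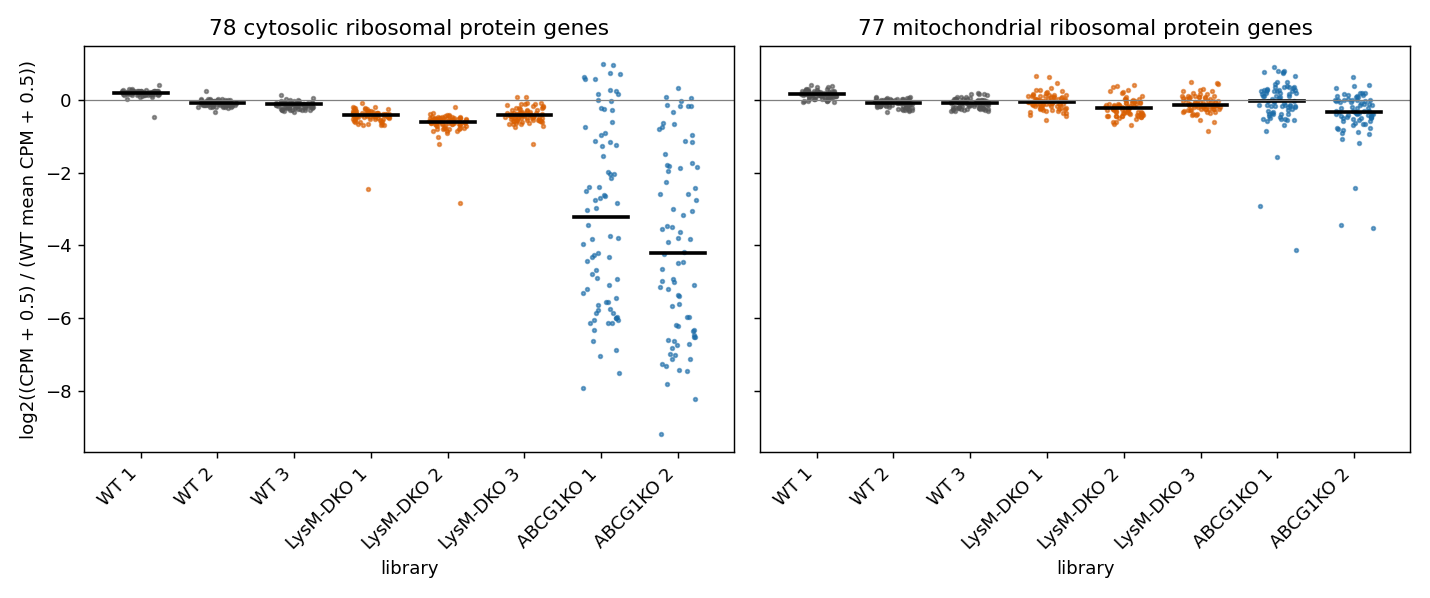
Log2 level of each tested gene in each library relative to its WT mean, after adding 0.5 CPM, for 78 cytosolic (left) and 77 mitochondrial (right) ribosomal protein genes. Points are genes and black lines are library medians. The cytosolic medians are 0.21, -0.08 and -0.12 in WT, -0.41, -0.59 and -0.42 in LysM-DKO, and -3.22 and -4.20 in ABCG1KO.

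The libraries of a group were not alike. WT 1 had the highest value of the WT libraries in 77 of 78 tested members, and LysM-DKO 2 had the lowest value of those 6 libraries in 65 of 78. Without WT 1, the members' median log2 fold change was -0.37, and all 78 remained below 0. Without LysM-DKO 1, which differs from the other LysM-DKO libraries in the sex-linked genes, the median was -0.52.

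Among the stalk proteins, which recruit the elongation factors to the ribosome, Rplp0 stood at 996, 793 and 660 CPM in WT and at 618, 578 and 640 CPM in LysM-DKO. Its groups did not overlap, although WT 3 and LysM-DKO 3 were close. It differed by -0.42 on the log2 scale (SE 0.22, adjusted p = 0.484 in edgeR). Rplp1 and Rplp2 had log2 fold changes of -0.40 and -0.44 and did not overlap either.

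DESeq2 called 3 core members, Rpl31, Rpl23 and Rps26, and the low-level Rps4l. Rpl31 (chr1:39367842-39371911, mm10), which lies near the exit of the nascent peptide tunnel, stood at 405, 328 and 306 CPM in WT and at 230, 191 and 218 CPM in LysM-DKO. Every LysM-DKO library was below every WT library. Its log2 fold change was -0.70 in edgeR (SE 0.15, adjusted p = 0.234) and -0.73 in DESeq2 (SE 0.18, adjusted p = 0.00409). Rpl23 (chr11:97777527-97782437) stood at 645, 498 and 515 CPM in WT and within 363 to 380 CPM in LysM-DKO. Its adjusted p was 0.295 in edgeR and 0.0158 in DESeq2. Rps26 (chr10:128624534-128626747), a small-subunit protein near the mRNA exit, stood at 408, 345 and 315 CPM in WT and at 235, 210 and 262 CPM in LysM-DKO. Its adjusted p was 0.342 in edgeR and 0.0421 in DESeq2.

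Rps4l (chr6:148354656-148355598) had the largest difference of the family. GENCODE lists it as a transcribed processed pseudogene rather than a coding gene. It stood at 7.30, 6.79 and 7.27 CPM in WT and at 0.896, 0.561 and 2.82 CPM in LysM-DKO. All LysM-DKO libraries were lower, with LysM-DKO 3 well above the other two of its group. The log2 fold change was -2.32 in edgeR (SE 0.55, adjusted p = 0.270) and -2.34 in DESeq2 (adjusted p = 0.00212). With LysM-DKO 3 left out the edgeR value was -3.28, with LysM-DKO 2 left out it was -1.95, and neither fit called it. After it, the lowest members were Rps7 at -0.75, Rpl39 at -0.72, Rpl28 at -0.72 and Rpl32 at -0.72. Rps7, a small-subunit protein also known to bind MDM2, stood at 372, 315 and 263 CPM in WT and at 196, 181 and 189 CPM in LysM-DKO.

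At the other end stood Rps27l (-0.12), Rps27 (-0.23), Rpl4 (-0.24), Rps2 (-0.26) and Rpl8 (-0.29). Rps27l, a paralog of Rps27 known as a p53 target, stood at 48.9, 44.2 and 36.4 CPM in WT and at 40.8, 37.5 and 40.7 CPM in LysM-DKO, with full overlap. Scaled by library size alone, its log2 fold change was 0.03. Rpl4, a large-subunit protein that lines the peptide tunnel, stood at 903, 659 and 754 CPM in WT and at 669, 577 and 719 CPM in LysM-DKO. These groups overlapped.

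**Figure D2:**
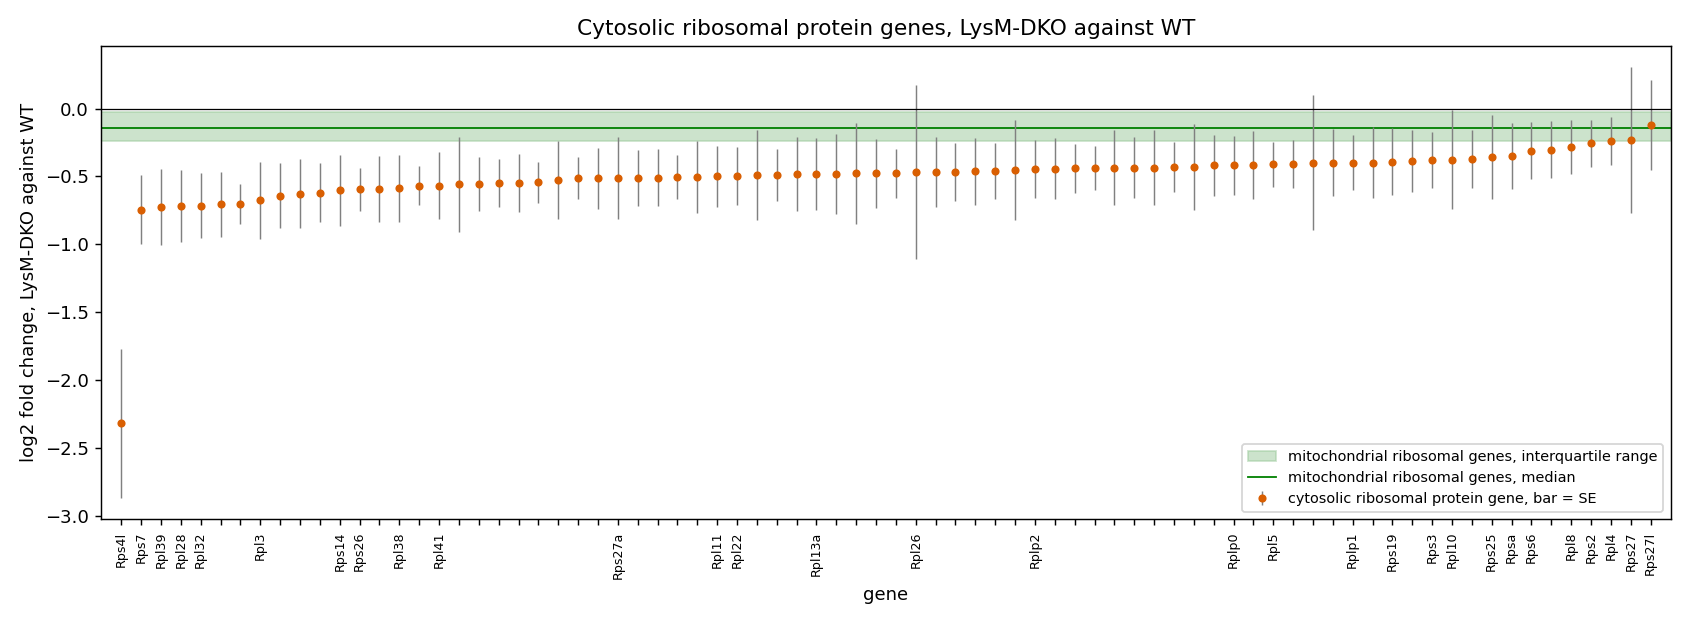
Log2 fold change of each of the 78 tested members in LysM-DKO against WT (edgeR), in order, with bars of 1 SE and names under the members chosen by the naming rule. The green line and band are the median and the interquartile range of the 77 mitochondrial ribosomal protein genes. All member points lie below 0, from -2.32 (Rps4l) to -0.12 (Rps27l).

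Other members had been chosen for naming beforehand, several for known roles outside translation. Rpl5 and Rpl11, which form a particle with 5S ribosomal RNA that can bind MDM2, had log2 fold changes of -0.41 and -0.50. Rps6, the substrate of S6 kinase, stood at 427, 350 and 300 CPM in WT and at 292, 268 and 309 CPM in LysM-DKO. Its groups overlapped and it differed by -0.31 on the log2 scale (SE 0.21, adjusted p = 0.569 in edgeR). Rpl13a, known from translational silencing in myeloid cells, was at -0.48, and Rps3, also described in DNA repair, was at -0.38. Rps19 and Rps14, which are mutated or deleted in inherited and acquired anaemias, were at -0.39 and -0.60. Rpl22 was at -0.50, and Rpl38, known for its part in the translation of Hox mRNAs, at -0.59. Rpl3, in the peptidyl transferase centre, was at -0.67, and Rpl10, at the subunit interface, at -0.38. Rps27a, which is made as a fusion with ubiquitin, was at -0.51, and Rpsa, also known as the laminin receptor, at -0.35. Rps25 was at -0.36, Rpl41 at -0.57 and Rpl26, with few counts, at -0.47. The edgeR adjusted p of the members ranged from 0.234 to 0.904, with a median SE of 0.24.

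Both subunits gave like values. The median log2 fold change was -0.48 over 43 tested large-subunit genes and -0.45 over 32 small-subunit genes. The 13 tested members whose listed start opens with the C and pyrimidine motif had a median of -0.48, and the 44 others with a matched window had a median of -0.47. Across the 78 members, the log2 fold change went little with the shared share of the transcript (Spearman rho 0.17) or with transcript length (rho 0.06). These are descriptions across genes measured in the same libraries.

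The mitochondrial ribosomal protein genes had values closer to 0 in the same libraries, and the difference between both families was not tested. Their median log2 fold change was -0.14, 60 of 77 were below 0, and edgeR called 0 of 77. At an unadjusted p under 0.05 edgeR gave 6 of 77, where it gave 11.7% of all genes tested in either direction, and DESeq2 called 0. The groups did not overlap, with LysM-DKO lower, in 15 of 77 mitochondrial genes and in 9.98% of all genes. With LysM-DKO higher, this held for 5 of 77 and for 1522 of 13821 genes tested. The summed level of the mitochondrial genes was 2110, 1773 and 1757 CPM in WT and 1823, 1629 and 1742 CPM in LysM-DKO, which overlap. The highest were Mrps18b at 0.53, Mrpl47 at 0.46 and Mrpl38 at 0.45, and the lowest were Mrps12 at -0.51, Mrpl33 at -0.51 and Mrps26 at -0.43. Scaled by library size alone, the median over all genes moved to 0.17, that of the mitochondrial genes to 0.01 and that of the cytosolic genes to -0.32, with 77 of 78 cytosolic members below 0.

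Transcript length over all genes was set beside this difference. Members have short transcripts, with a median of 768 bases. Over 1045 other tested genes with a transcript under 1000 bases, the median log2 fold change in LysM-DKO was -0.21, and over 3753 genes of 4000 bases or more it was 0.21. Over 442 other genes under 2000 bases with a WT mean of 100 to 1000 CPM, it was -0.23, and 373 of them were below 0. The part of transcript length in the members' difference was not tested.

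Marker genes were summed over each whole list. The 10 proliferation genes stood at 652, 435 and 268 CPM in WT and at 280, 208 and 468 CPM in LysM-DKO. Of these, 9 of 10 had a log2 fold change below 0. WT 1 was highest and LysM-DKO 2 lowest in both this sum and the members' sum, while LysM-DKO 3 had more proliferation marker counts than WT 2 and WT 3 and fewer in ribosomal protein genes. The 7 B cell markers in the files summed to between 3.16 and 40.5 CPM in WT and to between 0.0242 and 1.56 CPM in LysM-DKO, where 6 of 7 were at 0 in LysM-DKO 1. All 7 had a log2 fold change below 0. In edgeR 6 of 7 were lower at an unadjusted p under 0.05, where 5.61% of all genes tested were. edgeR called 0 of 7 after adjustment, and DESeq2 called 4 lower, against 1.37% of all genes tested. The 8 macrophage markers had a median log2 fold change of -0.09. Of these, 1 of 8 had an unadjusted p under 0.05 in edgeR, where 11.7% of all genes tested did. The macrophage sum without Lyz2 was 5039 to 5540 CPM in WT and 4815 to 5381 CPM in LysM-DKO, which overlap. With Lyz2, which carries the Cre driver, it was 18043 to 21157 and 10992 to 13064 CPM. T cell markers summed to 0.518 to 4.53 CPM and mast cell markers to 0.800 to 3.65 CPM over those 6 libraries. Neutrophil markers summed to 64.2 to 134 CPM, fibroblast markers to 678 to 1663 CPM and mesothelial markers to 6.18 to 87.6 CPM. The part of these cell types in the members' difference was not tested.

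Other genes of the translation machinery fell into groups with different medians. In the list of translation factors and other genes known for TOP mRNAs, 22 of 24 tested genes had a log2 fold change below 0 in LysM-DKO, with a median of -0.37. Over 98 tested genes outside the members with a WT mean of 1000 CPM or more, the median was -0.33. Over 1760 at 100 to 1000 CPM it was -0.06. The part of level or transcript length in this list was not tested. edgeR called 0 of 24. It gave 11 lower at an unadjusted p under 0.05, where 5.61% of all genes tested were lower at that level. DESeq2 called Eef2. Eef2, the elongation factor that moves the ribosome along the mRNA, stood at 2163, 2155 and 2030 CPM in WT and at 1659, 1559 and 1644 CPM in LysM-DKO. Its groups did not overlap. The lowest p in the list belonged to Fau, Eif3k, Eif3f and Pabpc1. Fau, which encodes a ubiquitin-like fusion of the small-subunit protein eS30, stood at 418, 344 and 353 CPM in WT and at 283, 239 and 231 CPM in LysM-DKO. Pabpc1, the poly(A)-binding protein, stood at 1358, 1358 and 1125 CPM in WT and at 838, 926 and 1059 CPM in LysM-DKO. Eif3f and Eif3k, subunits of the initiation factor eIF3, had log2 fold changes of -0.45 and -0.59.

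Most genes that assemble ribosomes lay on the other side of 0. Of 32 assembly and nucleolar factors, 26 had a log2 fold change above 0, with a median of 0.29, against 0.02 over all genes tested. Over tested genes outside the members, the median was -0.21 under 1000 bases of transcript and 0.21 at 4000 bases or more. The part of transcript length in this list was not tested. edgeR called 0 of 32, and DESeq2 called Heatr1. At an unadjusted p under 0.05, edgeR gave 5 of 32, all higher, where 6.04% of all genes tested were higher at that level. Heatr1, a factor of pre-ribosomal RNA processing, stood at 26.9, 33.2 and 31.7 CPM in WT and at 44.1, 42.1 and 51.5 CPM in LysM-DKO, with no overlap (log2 fold change 0.59, SE 0.14, edgeR adjusted p = 0.270). Tsr1, a maturation factor of the small subunit, was at 0.62. Nat10, an RNA acetyltransferase, was at 0.42, and Wdr43, a nucleolar protein, at 0.34.

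The remaining lists, apart from the cell type markers, had medians near that of all genes, and edgeR and DESeq2 called none of their genes. At an unadjusted p under 0.05, edgeR gave 11.7% of all genes tested in either direction. The 14 genes of RNA polymerase I and its factors had a median of 0.07, with 1 at that level. The lowest p values of these 14 belonged to Polr1b (0.71), Taf1b (0.42), Polr1a (0.36) and Polr1d (-0.44). The 24 genes that control ribosomal protein transcription and translation had a median of 0.12, with 3 at an unadjusted p under 0.05, near the share over all genes. Those 3 were the transcription factors Gabpa (0.42) and Sp1 (0.47) and the RNA-binding protein Larp4 (0.34). Next by p was the translation repressor Eif4ebp1 (-0.25). The 11 genes of the p53 arm that senses free ribosomal proteins had a median of 0.14, with 0 at an unadjusted p under 0.05. The apoptosis gene Bbc3 was at -0.31, and Zmat3, Sesn2 and Eda2r were at 0.61, 0.36 and 1.09.

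In the ABCG1KO libraries most cytosolic ribosomal protein genes had far fewer counts than in WT, while some had counts close to those in WT. The members took 0.979% and 0.572% of the counts in genes, with a mean of 0.776% ± 0.288 (SD, n = 2). edgeR called 61 of 78 members lower and 0 higher at an adjusted p under 0.05, where 16% of all genes tested were called and 8.83% were called lower. The median log2 fold change over the members was -3.62, against 0.01 over all genes. Without ABCG1KO 1 it was -4.23 and without ABCG1KO 2 it was -3.01. ABCG1KO 2 was below ABCG1KO 1 in 76 of 78 members. The comparison shares the WT libraries with the one above.

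Other features also set the ABCG1KO libraries apart. Both differed from every WT library in the sex-linked genes. Mast cell markers summed to 49.9 and 11.8 CPM in ABCG1KO against 2.41 to 3.65 CPM in WT, and neutrophil markers to 354 and 206 CPM against 89.4 to 134 CPM. Of the 3 neutrophil markers tested, 2 had a log2 fold change above 0 and 1 below, from -3.13 to 1.40. Macrophage markers without Lyz2 summed to 7832 and 7154 CPM, above every WT library. The list as a whole did not move in 1 direction: of its 8 genes with Lyz2, 4 had a log2 fold change above 0 and 4 below, from -1.06 to 1.87. Fibroblast markers stood at 160.0 CPM in ABCG1KO 1 and 1185 CPM in ABCG1KO 2, on either side of the 755 to 913 CPM of WT. Sums of the B cell markers (17.5 and 3.21 CPM), T cell markers (3.07 and 2.78 CPM) and proliferation genes (194 and 378 CPM) overlapped WT, as did mesothelial markers (8.06 and 31.9 CPM). The part of these cell types in the members' difference was not tested. Here the genotype cannot be told apart from the sex of the mice.

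The lowest members were nearly without counts. Rpl23a stood at 346, 257 and 269 CPM in WT, and had 22 counts in ABCG1KO 1 and 0 in ABCG1KO 2. Rps29 stood at 284, 237 and 253 CPM in WT and at 0.909 and 0.354 CPM in ABCG1KO (log2 fold change -8.71, SE 0.40, edgeR adjusted p = 1.03e-05). Without ABCG1KO 1 it was -9.51. Rpl19 stood at 652, 528 and 503 CPM in WT and at 3.76 and 1.98 CPM in ABCG1KO. Rpl24 and Rpl21 had log2 fold changes of -7.36 and -7.35. In all, 27 members above 100 CPM in every WT library were below 10 CPM in both ABCG1KO libraries.

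Others had counts close to those in WT. Rps3 stood at 593, 509 and 494 CPM in WT and at 871 and 519 CPM in ABCG1KO. Both ABCG1KO values lay above WT 2 and WT 3 (log2 fold change 0.39, SE 0.23, edgeR adjusted p = 0.294). Rpl13a was at 0.50, Rps4l at 0.53 and Rps27 at 0.49, and none of these passed the test. Without ABCG1KO 1, the values of Rps3, Rpl13a and Rps27 were -0.04, -0.18 and -0.25. Stalk genes were split: Rplp0 and Rplp1 fell by 1.44 and 1.46 on the log2 scale while Rplp2 fell by 4.67.

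The size of the loss went with sequence that a member shares with other genes. At least 1 window of 50 bases occurs in a transcript of another annotated gene for 78 of 81 cytosolic members and for 35 of 77 mitochondrial ones. The median shared part was 49.3% of the transcript for cytosolic members, with a median of 8 pseudogenes, and 0% for mitochondrial ones. Among 9 tested members with under 20% shared, the median log2 fold change in ABCG1KO was -0.17 and 4 were called lower. It was -2.83 among 29 members with 20 to 50% shared (20 called lower) and -4.13 among 25 members with 50 to 80% (23 called lower). Among 15 members with 80% or more it was -5.31, and 14 were called lower. Across 78 members the Spearman rho was -0.45, as a description. The percentage depends on transcript length, and the group under 20% holds Rps15a (5130 bases) and Rps20 (3706 bases). These share windows with 9 and 4 pseudogenes. In LysM-DKO against WT, the medians of the same 4 groups were -0.56, -0.48, -0.48 and -0.46.

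**Figure D3:**
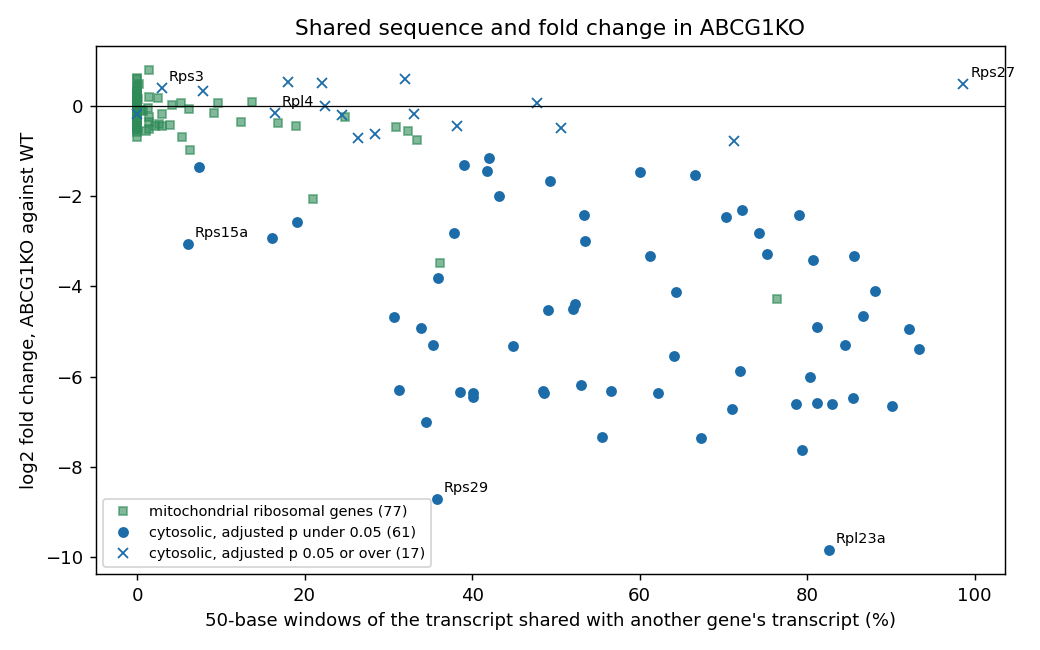
Log2 fold change in ABCG1KO against WT (edgeR) against the percentage of 50-base windows of the principal transcript that occur in a transcript of another gene. Blue circles are the 61 called cytosolic members, blue crosses the 17 not called, and green squares the 77 mitochondrial ribosomal protein genes. Rps27, at 98.6% shared and a log2 fold change of 0.49, is a low-count exception. Rps15a, at a log2 fold change of -3.07, is an exception with a small percentage, 6.04% of the windows of a 5130-base transcript.

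Mitochondrial ribosomal protein genes had a median log2 fold change of -0.12 in ABCG1KO, with 30 of 77 above 0. Of these 77, edgeR called 7 lower and 2 higher, where 16% of all genes tested were called and 8.83% were called lower. The 3 lowest were Mrpl23 at -4.29, Mrps36 at -3.49 and Mrps33 at -2.07, which share 76.4%, 36.2% and 20.98% of their windows with other genes. Among the 6 mitochondrial genes with 20 to 50% shared, values ranged from -3.49 to -0.25 and 2 were called lower. Among the 70 with under 20% shared, 4 were called lower and 2 higher. Mrpl23 stood at 27.6, 19.1 and 17.0 CPM in WT and at 0.753 and 1.39 CPM in ABCG1KO. The highest were Mrpl9 (0.79), Mrps30 (0.61) and Mrps34 (0.59, not called). Mrps30 (adjusted p = 0.0472 in edgeR) lost its call in 10 of 16 alternatives, among them the fits without any 1 of the WT or LysM-DKO libraries and without ABCG1KO 1. Mrpl9 lost it in the fit without ABCG1KO 1, and Mrps33 was at -2.66 there. In the translation factor list, 9 of 24 genes were called lower in ABCG1KO and 0 higher, where 8.83% of all genes tested were called lower. The 9 translation factor calls included Fau (-5.86), Tpt1 (-3.56), Eef1g (-3.12), Btf3 (-2.82), Naca (-2.15), Eif2s3x (-1.83), Vim (-1.56) and Eef1a1 (-1.19). Eef2, in contrast, stood at 2257 and 2444 CPM in ABCG1KO.

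Pseudogene copies of members that are counted in the files differed among themselves. Of 16 such copies that share a window of 50 bases with a member, 3 were above every WT library in both ABCG1KO libraries, 4 were below, 6 overlapped WT and 3 had no counts. Those below were Gm12191, a copy of Rpl30 (64, 88 and 94 counts in WT, 0 and 1 in ABCG1KO), Rpl31-ps12 (39, 22 and 23 counts in WT, 0 and 0 in ABCG1KO), Rps19-ps3 (49, 51 and 44 counts in WT, 35 and 19 in ABCG1KO) and Gm10548, with at most 6 counts in a library. Those above were Rps15a-ps4 (21, 10 and 16 counts in WT, 134 and 66 in ABCG1KO) and the copies of Rpl37 and Rpl14 described next. Rpl37, a large-subunit protein, stood at 226, 193 and 174 CPM in WT and between 130 and 149 CPM in LysM-DKO. In ABCG1KO it stood at 3.73 and 1.37 CPM. Its copy Rpl37rt, a transcribed processed pseudogene (chr5:115102923-115110268), stood at 15.3, 11.7 and 11.5 CPM in WT and between 7.85 and 10.1 CPM in LysM-DKO. In ABCG1KO it stood at 160.0 and 75.7 CPM, above every other library. The copy rose by 3.20 on the log2 scale (SE 0.30, adjusted p = 0.000421 in edgeR), and by 2.55 without ABCG1KO 1. Rpl14-ps1, a processed pseudogene of Rpl14, had 195, 162 and 167 counts in WT, 155, 146 and 117 in LysM-DKO, and 8885 and 7940 in ABCG1KO. All copies were named after their values were seen.

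The coding sequence of Rpl37 (chr15:5116645-5119140) and the matching part of Rpl37rt are identical at 290 of 291 bases. Coding bases 219 to 278 are shown from the GENCODE transcripts (GRCm38), because they hold the 1 differing base, which is in capitals.
Rpl37: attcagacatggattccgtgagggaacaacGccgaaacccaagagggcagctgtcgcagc
Rpl37rt: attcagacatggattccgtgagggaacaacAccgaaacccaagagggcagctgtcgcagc

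**Figure D4:**
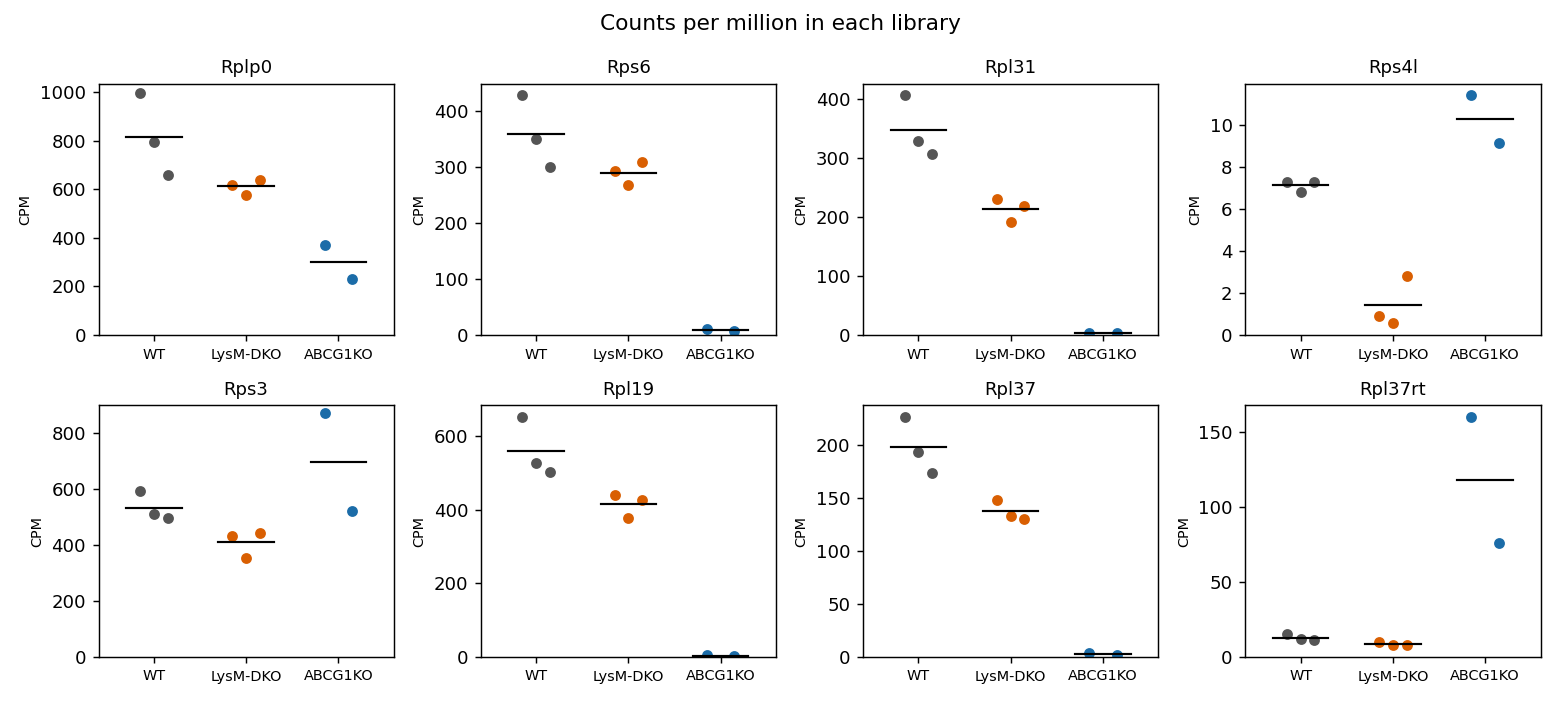
CPM in each library for 7 members and the copy Rpl37rt, with a point for each library, a black line at the group mean and axes from 0. Rpl19 and Rpl37 lie at 1.37 to 3.76 CPM in ABCG1KO while the ABCG1KO means of Rps3 and Rpl37rt lie above those of WT.

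Reads left without a gene because they aligned to several places or met no annotated gene were also more frequent in ABCG1KO. Alignments to more than 1 place formed 2.83% to 3.00% of the reads of a WT library, 2.65% to 3.01% in LysM-DKO, and 6.93% and 6.74% in ABCG1KO. Alignments that met no annotated gene formed 4.26% to 5.88% in WT, 4.33% to 6.07% in LysM-DKO, and 13.8% and 10.2% in ABCG1KO. Alignments that met more than 1 gene were less frequent in ABCG1KO, at 0.665% and 0.614%. They formed 0.887% to 0.980% in WT and 0.873% to 0.888% in LysM-DKO. The read length and aligner of each library are not given in the sources used here. Genotype and these properties of the libraries cannot be told apart in this group.

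Between LysM-DKO and ABCG1KO, edgeR called 58 of 78 members higher in LysM-DKO, where 7.76% of all genes tested were called higher, and 2 lower. The median log2 fold change was 3.21. Rpl23a, Rps29, Rpl19, Rpl24 and Rpl21 had the highest values, from 9.44 to 6.80. The Rpl23a value rests on the 22 counts of ABCG1KO 1 and was 8.32 without ABCG1KO 2. Among the members called lower was Rps4l (-2.85, SE 0.59, edgeR adjusted p = 0.0194), which was not called without LysM-DKO 1, without ABCG1KO 1 or when only both groups were fitted. Without LysM-DKO 3 it was at -3.81. Rpl13a (-0.98), Rps3 (-0.76) and Rps27 (-0.72) did not pass the test.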

How the data were processed

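The authors deposited a file of raw counts for each library, and its 5 closing lines are those that htseq-count writes. The submitters' processing notes name mm10, STAR 2.7.9a, TopHat, HTSeq 0.11.2, DESeq2 1.30.1 and limma without role or order. Annotation and strand setting are not given in the sources used here, so genes that overlap others (such as Rpl35 and Rpl23a) are uncertain.

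Counts were fitted as deposited in edgeR 4.0.16 (R 4.3.3): filterByExpr, which left 13821 genes, TMM scaling and a robust quasi-likelihood fit over all 8 libraries with a term per group. The threshold was 0.05 on p-values adjusted by Benjamini-Hochberg across the 13821 genes. Alternatives were other scaling and filters, DESeq2 1.42.0, 2-group fits, a replicate block and each library left out. Procedures were tested on simulated data. A count of 0 allows up to 3 counts (counting error only, since reads carry no molecular identifiers). Shared 50-base windows came from GENCODE M21 transcripts.

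Members, lists and tests were chosen with earlier results of these data known. Named members were a fixed set with known roles and the 5 highest and 5 lowest in each comparison. From the mitochondrial genes the 3 highest and 3 lowest against WT were named, and from each other list the 4 with the lowest p in LysM-DKO against WT. The DESeq2 calls, the called translation factors and the copies were named after their values were seen. Some members that the rule takes are not reported here.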

Additional observations from a re-analysis of the deposited data

Results flagged for a closer look

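The shares of reads with several alignments or outside annotated genes were above every WT library in both ABCG1KO libraries. The share that met more than 1 gene was below every WT library in both. Alignments to more than 1 place formed 6.93% of the reads in ABCG1KO 1 and 6.74% in ABCG1KO 2, against at most 3.00% in WT. Alignments that met no annotated gene formed 13.8% in ABCG1KO 1 and 10.2% in ABCG1KO 2, against at most 5.88% in WT. Their part in the levels of ribosomal protein genes was not tested.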

How the results depend on the processing

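In LysM-DKO against WT, edgeR called 0 cytosolic and 0 mitochondrial ribosomal protein genes and 0 genes of the other 5 lists under every alternative. Among these genes, DESeq2 called 4 cytosolic members, 1 assembly factor (Heatr1) and 1 translation factor (Eef2). The cytosolic median ranged from -0.54 to -0.32 over all alternatives. The mitochondrial median was 0.01 in LysM-DKO and 0.12 in ABCG1KO when scaled by library size alone, which moved the median of all genes to 0.17 and 0.25. Under that scaling Rps27l was at 0.03 in LysM-DKO and 0.23 in ABCG1KO, and Rpl22 at 0.02 in ABCG1KO. Rps27l in ABCG1KO was at 0.00 with RLE size factors, 0.00 with DESeq2 and 0.01 with at least 10 counts in every library. With 1 library left out, it ranged from -0.98 to 0.57, Rpl22 from -0.74 to 0.16, Rpl13a from -0.18 to 0.95, Rps27 from -0.25 to 0.97 and Rps3 from -0.04 to 0.71. In ABCG1KO, 59 to 65 cytosolic members were called over all alternatives. The 9 mitochondrial calls became 5 when only the 2 groups were fitted and ranged from 5 to 8 with 1 library left out (5 without WT 2 or ABCG1KO 1). In LysM-DKO against ABCG1KO, the median ranged from 2.51 to 3.85 with 1 library left out, and Rps27 from -1.20 to 0.00. Same-numbered WT and LysM-DKO libraries deviated together with r of 0.04, 0.43 and -0.01, so the numbers were not taken as pairs. With a replicate block, 0 members were called in LysM-DKO and 61 in ABCG1KO. A group left with 1 library was assumed to vary like the others. The cause of these shifts was not tested.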
